A study of Mus musculus with 8 samples.

Results

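The genes described here are the chemokines and chemokine receptors on a mouse liver microarray, chosen by name: every non-control probe whose array gene name begins with Ccl, Cxcl, Ccr, Cxcr, Cx3c, Xcl or Xcr followed by a number, with an optional l or r between. They were 57 of the 28146 gene names on the array (74 of 41174 probes), of which 35 are ligands and 22 are receptors, and 17 had more than 1 probe. Liver RNA came from pregnant C57BL/6J mice and their male fetuses, taken on gestation day 18, after the mothers had free access to food (control) or received 50% of the control intake from gestation day 10 to 17 (food restriction, FR). All pools were of this strain, and the labels name no engineered allele and no agent other than the diet. A control pool and an FR pool were hybridized together on each Agilent 2-colour array and again with the dyes exchanged, which gave 4 pool pairs on 8 arrays: mothers in pools of 6 animals (1 pair), fetuses in pools of 6 (1 pair) and fetuses in pools of 3 (2 pairs, replicates 1 and 2).

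Chemokines are small secreted proteins that direct leukocytes along concentration gradients, and they act through receptors that span the membrane and couple to inhibitory G proteins. Some are induced in inflammation by interferons or by NF-kB, while others are made constantly and keep cells in place. Adult liver holds resident macrophages (Kupffer cells) and lymphocytes in its sinusoids, and fetal liver is a site of blood formation where Cxcl12 and its receptor Cxcr4 hold blood progenitors.

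All ratios are log2 of FR over control, turned so that a negative value means less signal in the FR pool, with the 2 arrays of a dye exchange averaged to 1 value per pool pair. Fetal values are given as the mean ± SD over the 3 fetal pool pairs (n = 3), and their adjusted p-values come from limma's moderated test over all genes with Benjamini-Hochberg adjustment. The maternal pair has no replicate, so its ratios have no test, and a maternal gene is counted only where it passed 1.5-fold in the same direction on both arrays. Where a gene had several probes, the brightest was used. Which mothers stand behind each pool is not given, so pools may share litters and these p-values may be too small, and nothing says whether the spread between pairs is biological or technical. The samples were RNA pools of whole liver tissue, so fewer cells of a type and less RNA per cell cannot be told apart. Some description texts, which also name rat hippocampus, speak of a Pool 2 for the dye-exchanged arrays, but titles and source names do not, and the pool pairs used here are those of the titles.

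The median raw signal of an array lay between 70 and 284 in Cy3 and between 122 and 310 in Cy5, and 25468 probes stood well above background in every channel. All 7 hepatocyte markers examined, albumin and Afp among them, were well above background on maternal and fetal arrays. Over genes, the ratios of the 3 fetal pool pairs correlated with each other at 0.72 to 0.83, and the maternal pair with them at 0.41 to 0.46, as a description.

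A gene was tested in the fetus if its signal was well above local background for at least 1 diet on every fetal array. This left 41 members, 23 ligands and 18 receptors, of which Cxcl9 and Cxcr6 passed through the control channel only. A further 11 members (Ccl1, Ccl20, Cxcl2, Cxcl11, Cxcl13, Cxcl14, Cxcl15, Xcl1, Ccr1, Ccr8 and Ccr10) were above background on some fetal arrays, and 5 (Ccl11, Ccl22, Cxcl3, Cxcl17 and Cxcr1) on none. In the mother 41 members passed the same filter, 6 of them through 1 diet only. Of all 57, 37 were measured in mother and fetus, 4 in the mother only (Cxcl11, Cxcl13, Cxcl14 and Xcl1), 4 in the fetus only (Ccl12, Cxcl5, Ccr7 and Cxcr2) and 12 in neither. No member was saturated on any array.

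The first comparison asked which chemokine genes responded in fetal liver to maternal FR. The interferon-inducible chemokine Cxcl10 fell furthest of the members, to -1.66 ± 1.13 (3.16-fold lower), and receptors of neutrophils and monocytes fell with it, Cxcr2 to -0.91 ± 0.23 and Ccr2 to -0.68 ± 0.17. Fewer members rose, led by the atypical receptor Ccrl2 at 0.41 ± 0.18 and the macrophage-derived ligand Ccl9 at 0.39 ± 0.14. In all, 12 of the 41 tested members (29.3%) were lower in FR, 6 ligands and 6 receptors, where 14.3% of all 21105 tested genes were lower. Another 4 members (9.76%), 3 ligands and 1 receptor, were higher, near the 11.4% of all tested genes. The median was -0.07 over the 41 tested members and 0.01 over all tested genes. The other 25 tested members lay between -0.55 and 0.17 and did not pass.

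These counts had 2 limits. Without the pair of pools of 6, which shared a slide with the maternal arrays while the pools of 3 were on the other slide, 0 members and 0 of all genes passed in limma (16 members had an unadjusted p under 0.05), without replicate 1 of the pools of 3, 8 members passed (the calls of Ccl5, Ccl7, Ccl25, Cxcl16, Ccr7, Ccl17, Cxcl12 and Ccrl2 were lost), and without replicate 2, 15 passed. When the log ratios were scaled to a common spread between arrays, 0 members and 0 of all genes passed. At an unadjusted p under 0.05 the scaled fit held 22 members, against 23 in the unscaled fit. Shares of all genes at that level, here and for the 16 members above, were not counted. Without loess normalization 0 members were higher and 10 lower.

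**Figure D1:**
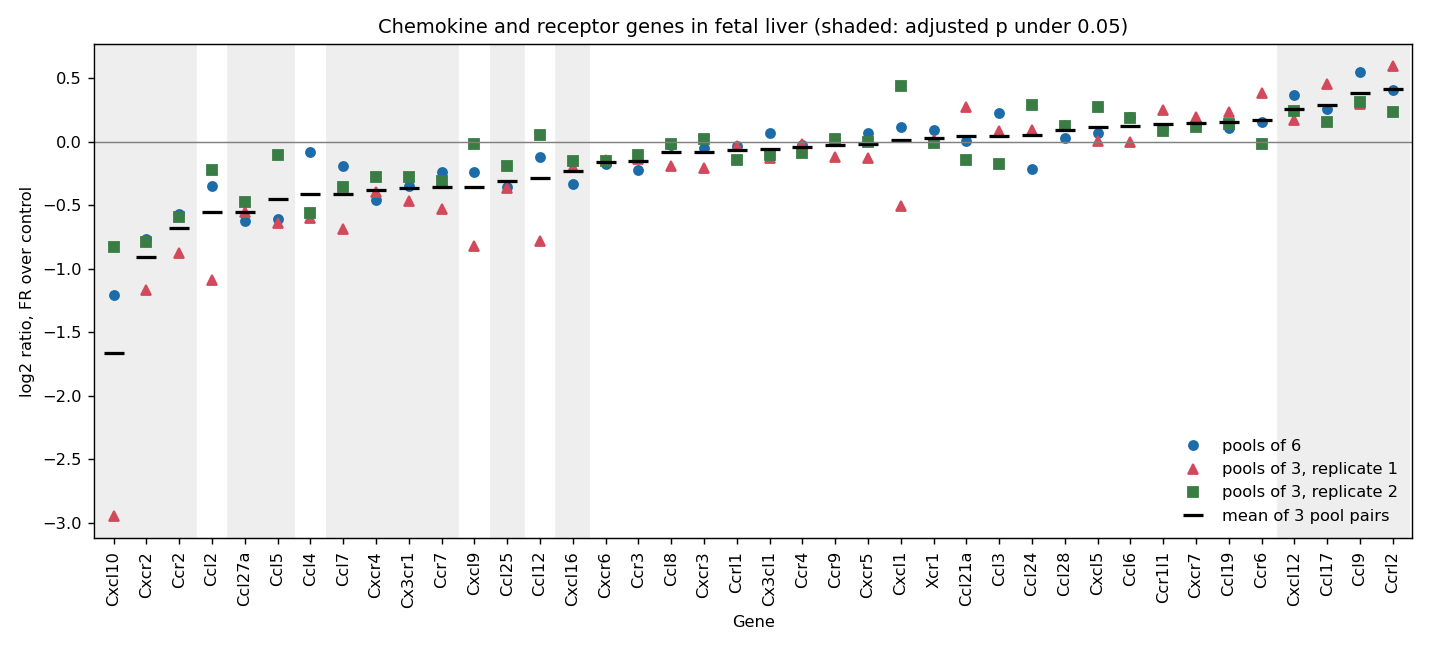
Log2 ratio of FR over control (vertical axis) for 40 members tested in fetal liver (horizontal axis, ordered by mean), with 1 point per pool pair, a bar at the mean of the 3 pairs and shading where the adjusted p was under 0.05. Cxcl10 stands lowest at -1.66, with its 3 pairs between -2.94 and -0.83, and Ccrl2 highest at 0.41.

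The ligands of the receptor Cxcr3, which guide activated T cells and natural killer cells, are Cxcl9, Cxcl10 and Cxcl11. Interferons and NF-kB are known to act at the start of such genes, so the 250 bases before the RefSeq transcription start (GRCm38.p6) are shown for Cxcl10, which fell in mother and fetus, for Cxcl9, which moved past the fold in the mother but did not pass in the fetus, and for Cxcl1, an NF-kB-responsive chemokine with the same pattern as Cxcl9. Capitals mark the interferon-stimulated response element (ISRE) motif, spelled GAAA, any 2 bases, GAAA, and the kB motifs, spelled GGGA, any 2 bases, then TTCC or TCCC. Each was searched on both strands, and matches of the 2 kB spellings can overlap.

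The Cxcl10 window lies at chr5:92348890-92349139 on the minus strand, the Cxcl9 window at chr5:92328080-92328329 on the minus strand and the Cxcl1 window at chr5:90890995-90891244 on the plus strand, each written 5′ to 3′ along its gene.
Cxcl10: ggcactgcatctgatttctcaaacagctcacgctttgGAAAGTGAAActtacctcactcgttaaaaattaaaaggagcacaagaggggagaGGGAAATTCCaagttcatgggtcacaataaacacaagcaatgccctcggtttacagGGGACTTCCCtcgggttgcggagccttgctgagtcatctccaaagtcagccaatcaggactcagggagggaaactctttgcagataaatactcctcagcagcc
Cxcl9: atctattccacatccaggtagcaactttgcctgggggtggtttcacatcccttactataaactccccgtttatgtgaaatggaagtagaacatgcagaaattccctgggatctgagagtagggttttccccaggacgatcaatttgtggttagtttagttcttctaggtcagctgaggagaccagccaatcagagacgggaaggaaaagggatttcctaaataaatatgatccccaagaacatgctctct
Cxcl1: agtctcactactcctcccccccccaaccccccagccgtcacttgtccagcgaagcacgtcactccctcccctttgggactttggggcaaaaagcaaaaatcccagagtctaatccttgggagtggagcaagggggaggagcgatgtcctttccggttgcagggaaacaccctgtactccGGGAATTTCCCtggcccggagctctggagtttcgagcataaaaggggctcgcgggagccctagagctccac

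The Cxcl10 window held the ISRE motif from position -213 and kB motifs from positions -159 and -103, counted from the transcription start. The Cxcl1 window held a kB motif from position -71, matched again on the other strand from -70, and the Cxcl9 window held none of the 3 letter strings. Promoters were found for 43 members (49 promoters). The ISRE motif was in 3 of these 49 (Cxcl10, Ccl19 and Cxcl14) and in 2.98% of all 32851 promoters, and either kB motif was in 7 of the 49 (Cxcl10, Cxcl1, Cxcl2, Cxcl3, Ccl1, Ccr3 and Ccr6) and in 1.77% of all promoters. Several of these members lie side by side as related copies, and a match is a description of the letters only.

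Cxcl10 (probe at chr5:92775781-92775840, mm9) had log2 ratios of -1.21 in the pools of 6, -2.94 in replicate 1 of the pools of 3 and -0.83 in replicate 2 (adjusted p = 0.0432). All 3 pairs were on the same side, with replicate 1 far below the others, and without it the mean was -1.02. The control pools had 10.2, 10.8 and 10.4 log2 intensity and the FR pools 8.96, 7.90 and 9.56, so the diets did not overlap. Its call was lost when non-uniform spots were left out and with no filter on dim probes, and over the alternatives tried the adjusted p ran from 0.00794 to 0.12. Cxcl9 had -0.24, -0.82 and -0.02 (adjusted p = 0.159), again with replicate 1 lowest, and was dim in the fetus. The receptor Cxcr3 had a mean of -0.08 ± 0.12 (adjusted p = 0.395), and Cxcl11 was above background in 1 of the 12 fetal channels.

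Interferon signalling and interferon-stimulated genes, a list of 21, were lower for 13 and higher for 0 of the 21 tested, with a median of -0.76. The ubiquitin-like antiviral protein gene Isg15 had -1.70, -3.88 and -1.56 across the same pairs (mean -2.38 ± 1.31, adjusted p = 0.0253), and the GTPase gene Igtp fell to -1.49 ± 0.58. As for Cxcl10, the pair with the lowest Isg15 value was replicate 1 of the pools of 3. Summed over the list, the level in the FR pool differed from that in the control pool by -0.81 in the pools of 6, -1.37 in replicate 1 and -0.59 in replicate 2; the part of this list in the Cxcl10 value was not tested.

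Among receptors and ligands of monocytes and macrophages, Ccr2, the receptor by which monocytes leave the marrow, had -0.57, -0.88 and -0.59 (adjusted p = 0.00799). A dimmer probe for Ccr2 had a mean of -0.17. Its ligand Ccl7 had -0.19, -0.68 and -0.35 (mean -0.41 ± 0.25, adjusted p = 0.0428), with -0.77 by a second probe, and its call was lost in 6 of 12 alternatives: without any 1 of the 3 pairs, without loess, with non-uniform spots left out and with scaling between arrays (adjusted p from 0.0264 to 0.075 over the 12). Each pair was thus lower in FR for the receptor and this ligand, by differing amounts. The main Ccr2 ligand Ccl2 had -0.35, -1.09 and -0.22 (mean -0.55 ± 0.47), which did not pass at adjusted p = 0.077, and Ccl12 and Ccl8 had -0.28 ± 0.44 and -0.08 ± 0.10 and did not pass either.

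Ccl5, made by T cells and natural killer cells, had -0.61, -0.64 and -0.10 (mean -0.45 ± 0.30, adjusted p = 0.0479). For this ligand replicate 2 stood apart near 0, and without replicate 1 of the pools of 3 the mean was -0.36 and did not pass. A dimmer Ccl5 probe also had -0.36 over the 3 pairs and did not pass with each probe tested on its own (adjusted p = 0.0651, limma). The macrophage inflammatory protein genes Ccl4, at -0.41 ± 0.29 (adjusted p = 0.0531), and Ccl3, at 0.04 ± 0.20 (adjusted p = 0.744), did not pass. Cx3cr1, the fractalkine receptor of patrolling monocytes and tissue macrophages, had -0.35, -0.47 and -0.28 (mean -0.36 ± 0.10, adjusted p = 0.0135). A dimmer Cx3cr1 probe gave -0.04, and fractalkine itself, Cx3cl1, had -0.06 ± 0.11 and did not pass.

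Ccr2 lies on chromosome 9 (probe at chr9:124022948-124023007, mm9), as do 14 of the 22 receptor genes. Cx3cr1, which was lower, and Ccrl2, which was higher, are on the same chromosome. Ccr3, an eosinophil receptor next to Ccr2, had -0.15 ± 0.06 (adjusted p = 0.0765), and the nearby Xcr1, Ccr9 and Ccr1l1 had 0.03 ± 0.05, -0.02 ± 0.08 and 0.14 ± 0.09, none of which passed. Chromosome 11 carries 12 of the ligands, and its members went both ways, with Ccl5, Ccl7, Cxcl16 and the receptor Ccr7 lower and Ccl9 higher.

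For neutrophils, the receptor Cxcr2, which recruits them from blood and marrow, had -0.77, -1.17 and -0.79 (adjusted p = 0.00723), and a second probe gave a mean of -0.84. Its ligands among the members did not pass, while Ppbp, a platelet-derived ligand outside the naming rule, fell to -0.55 ± 0.19 and passed. Cxcl1 had 0.12, -0.51 and 0.44 (mean 0.02 ± 0.48, adjusted p = 0.955), with the pairs on opposite sides of 0, and Cxcl5 had 0.11 ± 0.14 (adjusted p = 0.265), while Cxcl2, Cxcl3 and Cxcl15 were not above background on all arrays. Neutrophil granule and marker genes moved with the receptor: 10 of 12 tested were lower and 0 higher (median -0.55), among them Ltf at -1.03 ± 0.15 and S100a9 at -0.71 ± 0.05. Their summed level fell by 0.54 to 0.71 on the log2 scale in the 3 pairs, and its part in the Cxcr2 value was not tested.

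In the blood-forming niche, Cxcr4, the receptor that holds progenitors and B cell precursors near Cxcl12, had -0.46, -0.39 and -0.28 (mean -0.38 ± 0.09, adjusted p = 0.012). A second Cxcr4 probe agreed in sign at -0.25. The brighter probe of Cxcl12 had 0.36, 0.17 and 0.24 (mean 0.26 ± 0.10, adjusted p = 0.0296), but a probe for another Cxcl12 transcript had -0.21, -0.26 and -0.08, so no single direction holds for this gene. Of 12 members with several probes above background in the fetus, the probes of 11 agreed in sign, and Cxcl12 was the exception. The scavenging receptor Cxcr7, which also binds Cxcl12, had 0.15 ± 0.04 (adjusted p = 0.0704). Of 10 tested genes for other niche factors, 0 were called in either direction (median 0.05).

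Among chemokines that place lymphocytes, Ccl27a, an epithelial ligand, had -0.63, -0.55 and -0.47 (mean -0.55 ± 0.08, adjusted p = 0.00638), the lowest adjusted p of the members. Ccl25, which guides T cell precursors, fell to -0.31 ± 0.10 (adjusted p = 0.0195) while its receptor Ccr9 had -0.02 ± 0.08. A dimmer Ccl25 probe had -0.16 and did not pass with each probe tested on its own (adjusted p = 0.0712, limma). Ccr7, the lymph node homing receptor, had -0.24, -0.53 and -0.31 (adjusted p = 0.0233). The Ccr7 signal was dim, and over the alternatives tried its mean ran from -0.86 to -0.27. The Ccr7 ligands Ccl19 and Ccl21a had 0.16 ± 0.07 and 0.04 ± 0.21 and did not pass. Ccl25 thus passed on its brighter probe where its receptor did not, and Ccr7 passed where its ligands did not. The differences within these pairs were not tested. Ccl19, Ccl21a and Ccl27a exist in near-identical copies on mouse chromosome 4, so these probes may read several copies and their values are uncertain.

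The membrane-bound chemokine Cxcl16 had -0.33, -0.20 and -0.15 (mean -0.23 ± 0.09, adjusted p = 0.0388), and its receptor Cxcr6 had -0.17, -0.15 and -0.15 (adjusted p = 0.0535). The pairs of this receptor were close together, but the value did not pass, and the signal was dim. Ccr4, Cxcr5 and Ccr6 had -0.05 ± 0.04, -0.02 ± 0.10 and 0.17 ± 0.20 and did not pass.

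Among the members that were higher, Ccl9 had 0.55, 0.30 and 0.31 (adjusted p = 0.0183) and its neighbour Ccl6 had 0.13 ± 0.11 (adjusted p = 0.18). Both are ligands of Ccr1 made by myeloid cells. Ccrl2, which presents the attractant chemerin rather than signalling itself, had 0.40, 0.59 and 0.24 (adjusted p = 0.0216), and chemerin, Rarres2, had 0.68, 0.12 and 0.60 (mean 0.46 ± 0.30, adjusted p = 0.0459). Ccl17, a ligand of Ccr4, had 0.26, 0.45 and 0.15 (adjusted p = 0.0411). The calls of Ccl9, Ccl17 and Cxcl12 were lost when spots marked as non-uniform were left out, and the calls of all 4 higher members were lost without loess.

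Of the 12 lower members, 9 had their lowest value in replicate 1 of the pools of 3, 3 in the pools of 6 and 0 in replicate 2. Most lists of leukocyte markers moved with them. Over all tested genes, 14.3% were lower and 11.4% higher. Besides the neutrophil list, B lineage markers were lower for 11 of 13 tested (median -0.81), eosinophil and basophil markers for 4 of 6 (median -1.21), T and natural killer cell markers for 5 of 9 (median -0.31) and monocyte and dendritic cell markers for 6 of 8 (median -0.43), with 0 higher in each. Mast cell markers did not, with 1 lower and 1 higher of 6 (median 0.05). Kupffer cell and macrophage markers went both ways, with 3 lower and 1 higher of 12 (median -0.06). Endothelial and sinusoid markers were lower for 5 of 11 and higher for 0 (median -0.18). Hepatocyte markers were lower for 3 and higher for 1 of 7. Bile duct markers were lower for 2 of 5 and stellate and mesenchymal markers for 3 of 10, with 0 higher in each. Erythroid markers were lower for 1 of 7 and higher for 0 (median -0.02). The summed erythroid level differed by 0.54 in the pools of 6, 0.59 in replicate 1 and -0.14 in replicate 2. For monocyte and dendritic cell markers the summed level fell by 0.37 to 0.53 on the log2 scale, for T and natural killer cell markers by 0.21 to 0.48, and for B lineage markers by 0.80 to 1.41. For Kupffer cell markers it was 0.01 to 0.13 higher. The part of these cells in the receptor values was not tested.

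Other genes of the pathway gave mixed directions. Of 31 genes for signalling from chemokine receptors, 11 were lower and 7 higher (median -0.09). The inhibitory G protein subunit gene Gnai2 fell to -0.65 ± 0.08 and the myeloid kinase gene Fgr to -0.71 ± 0.24. The highest of the list was Rgs1, whose product shuts off G protein signals, with 1.07, 1.18 and 0.58 (mean 0.95 ± 0.32). The kinase gene Jak2 rose to 0.62 ± 0.26. In the mother Rgs1 had 1.38, past 1.5-fold on both arrays. Of 18 tested cytokine and NF-kB pathway genes, which included inhibitors of NF-kB, 5 were lower and 3 higher (median -0.12). The cytokine Il1b had -0.81 ± 0.30 and the NF-kB inhibitor Nfkbia 0.56 ± 0.13.

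Of 10 genes for processing and retention of chemokines, 4 were lower and 1 higher (median 0.02). The peptidase gene Dpp4, whose product trims chemokines, fell to -0.61 ± 0.12. Genes for chemokines, receptors and chemerin with names outside the naming rule were lower for 3 and higher for 1 of 6 tested (median -0.24). The higher gene was Rarres2, that of chemerin. The platelet chemokine gene Ppbp fell to -0.55 ± 0.19, and the scavenging receptor genes Darc and Ccbp2 to -0.40 ± 0.19 and -0.29 ± 0.15.

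The second comparison asked the same of maternal liver. There the 3 ligands of Cxcr3 stood among the lowest, with Cxcl9 at -1.72 and -1.71 on its arrays (3.29-fold lower), Cxcl10 at -1.69 and -1.72 (3.26-fold lower) and Cxcl11 at -0.99 and -1.06. Cxcl1, the neutrophil attractant, and Ccl24, an eosinophil attractant made by macrophages, were near 2-fold lower. The B cell attractant Cxcl13 was the only member past 1.5-fold higher. In all, 8 of 41 measured members (19.5%) were past 1.5-fold lower on both arrays, where 3.89% of 19448 measured genes were, and 1 (2.44%) was past it higher, where 3.02% were. The median was -0.18 over these members and 0.00 over all measured genes.

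Cxcl1 had -0.92 on the array with FR in Cy5 and -1.12 on the array with FR in Cy3, and Ccl24 had -0.97 and -0.93. Ccl5 had -0.86 and -0.71, and Ccl2 had -0.72 and -0.88. Each of these genes was thus lower in both dye orientations, by similar amounts. A dimmer Ccl5 probe had a maternal mean of -0.54, inside 1.5-fold, and a dimmer Ccl24 probe had -0.71. Cxcl13 had 0.84 and 1.04. Its receptor Cxcr5 had a mean of -0.18 and was dim.

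The other 32 measured members lay between -0.57 and 0.22. The lowest of them was Cxcr6 at -0.70 and -0.44, followed by the scavenging receptor Ccrl1 at -0.41 and -0.59 and by Ccl27a at -0.37 and -0.54. Cxcr3, the receptor shared by the 3 lowest ligands, had -0.28 and -0.50. Cxcl12 and Ccl9 had opposite signs on their arrays, at 0.17 and -0.39 and at 0.19 and -0.44, so a mean near 0 is no measure of either. A second Cxcl12 probe had -0.79. Ccr2 had -0.34 and -0.19, and Cxcr4 had 0.16 and 0.13 in a dim signal.

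**Figure D2:**
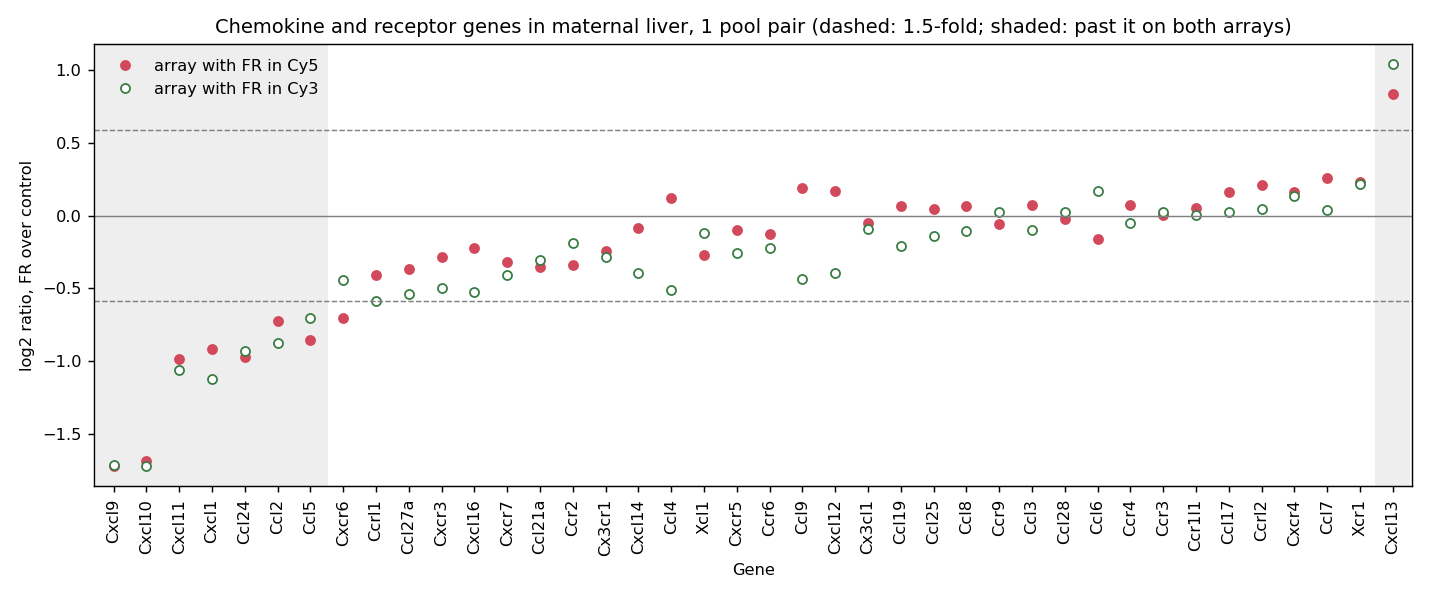
Log2 ratio of FR over control (vertical axis) for 40 members measured in maternal liver (horizontal axis, ordered by mean), with 1 point for each array of the dye exchange, dashed lines at 1.5-fold and shading where both arrays passed it. Cxcl9 and Cxcl10 stand lowest at -1.72 and -1.70, and Cxcl13 alone is above the upper line.

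Interferon-stimulated genes were past 1.5-fold lower for 11 and higher for 0 of the 19 measured in the mother (median -0.77), among them Isg15 at -1.44 and Igtp at -1.44. Monocyte and dendritic cell markers were past it for 4 of 8, all lower (median -0.63). Their summed level fell by 1.21 on the log2 scale, but in such a sum bright genes weigh most, here Ly6c2 (-2.06). For Kupffer cell markers 3 of 12 were past it, all lower (median -0.53), with Clec4f at -1.28 and a summed fall of 0.50. Neutrophil markers were past it for 0 of 7 (median 0.02), with a summed difference of 0.09, and 4 of 12 were not above background in the mother. T and natural killer cell markers were past it for 0 of 9 (median -0.17, summed difference of -0.09). B lineage markers were past it for 1 lower of 9 (median -0.04, summed difference of -0.40). Megakaryocyte and platelet markers were past it for 1 higher of 5 (median 0.04). Their summed difference was 1.00, with Vwf at 1.31. Erythroid markers were past it for 4 lower and 1 higher of the 5 of 7 measured (median -0.86, summed fall of 0.93). Stellate and mesenchymal markers were past it for 3 lower and 1 higher of 10 (median -0.30, summed fall of 0.08). Endothelial and sinusoid markers were past it for 1 lower of 11 (median -0.23). Their summed fall was 0.62, in which the bright Clec4g (-0.90) weighs most. The part of these cells in the maternal values was not tested. Of the cytokine and NF-kB pathway genes, 2 of 18 were past 1.5-fold, both higher: the interleukin 1 receptor gene Il1r1 at 1.29 and the NF-kB inhibitor gene Nfkbia at 1.11. Without loess, 2 members were past 1.5-fold lower and 0 higher and by the authors' deposited log ratios 17 were lower and 1 higher.

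The third comparison set the maternal response against the fetal response. Cxcl10 had close values in both, -1.70 in the mother and -1.66 ± 1.13 in the fetus, with a difference (maternal minus fetal) of -0.04 and an adjusted p of 0.985 in limma. Cxcl9, Cxcl1 and Ccl24 had differences of -1.36, -1.04 and -1.01 (adjusted p = 0.0865, 0.183 and 0.0661), which did not pass. In the other direction, Cxcr4 and Ccl7 had differences of 0.52 and 0.56, which did not pass either. The Cxcr4 probe behind this value was not well above background in the control mothers. The second Cxcr4 probe, above background in both, had 0.05 in the mother and -0.25 in the fetus. Cxcr7, at -0.37 in the mother and 0.15 ± 0.04 in the fetus, came nearest to the threshold (-0.51, adjusted p = 0.0539).

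Of the 37 members measured in both, 0 passed this limma test, where 4.17% of 18920 genes passed. The test takes the lone maternal pair to vary as much as fetal pairs do, which could not be measured. The count of 0 moved with the processing, to 5 with a smaller background offset and 6 with the deposited ratios.

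**Figure D3:**
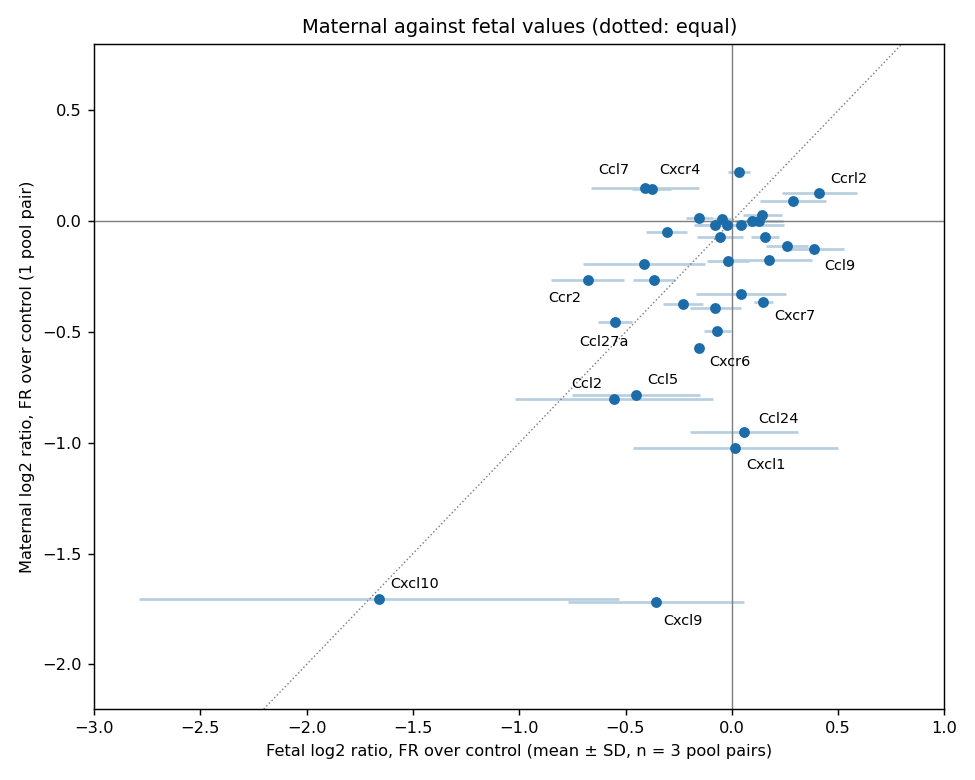
Maternal log2 ratio (vertical axis, 1 pool pair) against the fetal mean ± SD (horizontal axis, n = 3 pool pairs) for 36 members measured in both, with a dotted line where they are equal. Cxcl10 lies on the line near -1.7, while Cxcl9, Cxcl1 and Ccl24 lie below it at maternal values of -1.72, -1.02 and -0.95.

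The levels in the single pools stand behind these ratios. For Cxcl10, Ccr2 and Cxcr2 the FR pool was below its control in each of the 3 fetal pairs. Ccr2 had control levels of 8.45, 8.58 and 8.32 log2 intensity and FR levels of 7.88, 7.70 and 7.73, so the control and FR pools did not overlap. Cxcr2 had control levels of 8.91, 9.12 and 9.06 and FR levels of 8.14, 7.95 and 8.27, again without overlap. For Cxcl1 the 2 diets overlapped in the fetus, at 7.51, 7.77 and 7.33 in control and 7.63, 7.27 and 7.77 in FR, whereas the mother had 9.33 and 8.31.

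**Figure D4:**
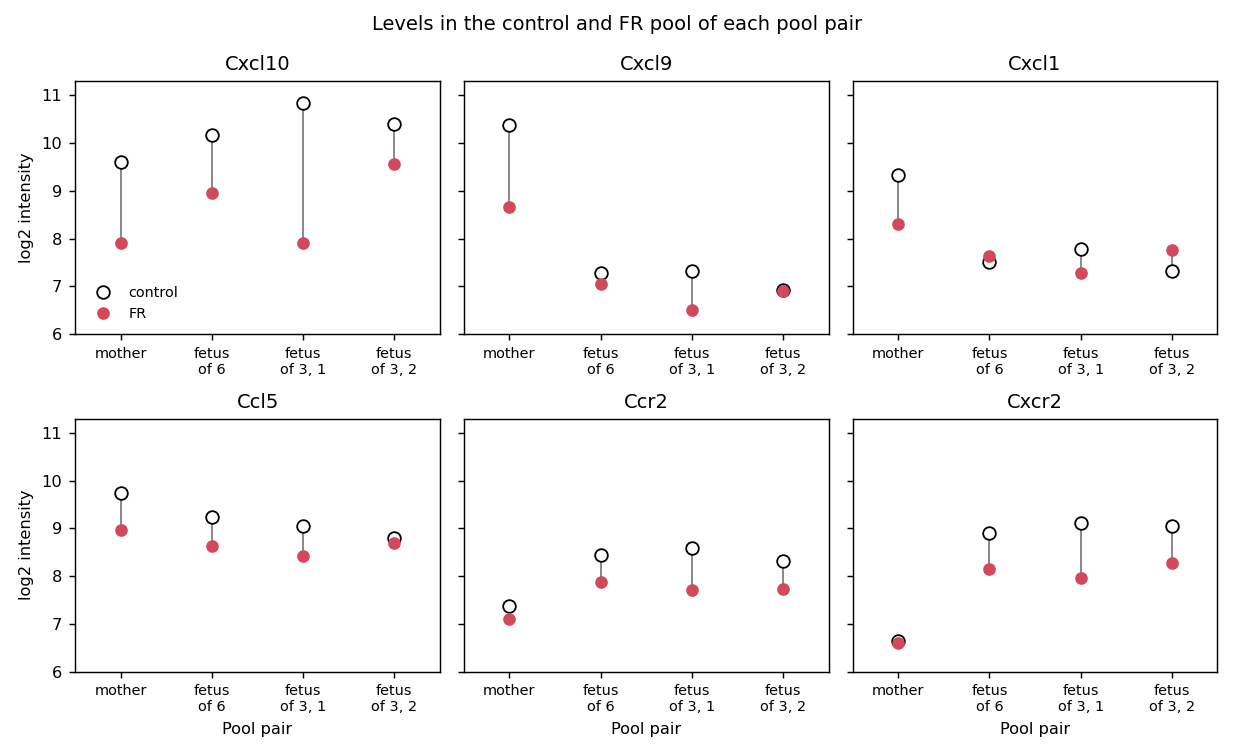
Level in log2 intensity (vertical axis) of 6 members in the control pool (open) and the FR pool (filled) of each pool pair (horizontal axis: mother, fetal pools of 6, fetal pools of 3 replicates 1 and 2), joined by a line. Cxcl9 runs from 10.4 to 8.66 in the mother and lies at or below 7.31 in the fetal pools.

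The last comparison asked how the control levels of these genes differed between maternal and fetal liver, from single-channel values normalized together. The Cxcr3 ligands Cxcl9 and Cxcl11 were higher in the mother, Cxcl9 by 3.20 on the log2 scale (9.21-fold) and Cxcl11 at least 6.89-fold, as was Ccl21a by 2.25. The third Cxcr3 ligand, Cxcl10, lay the other way, at 9.60 in the mother against 10.2, 10.8 and 10.4 in the fetal pools. Its difference of -0.86 did not pass (adjusted p = 0.0716, limma). The receptors Cxcr2 (at least 5.26-fold), Ccrl2 (-1.38), Ccr6 (-1.15) and Ccr2 (-1.08) were lower there, and Cxcr4 differed by -1.27 on the probe that was above background in both. Of 45 members tested, 14 (31.1%) were higher in the mother, where 17.8% of 20859 genes were, and 10 (22.2%) were lower, where 18.3% were. The test again rests on 1 maternal pool, and without replicate 1 of the pools of 3 the count of lower members was 6.

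The ligands made up 12 of the 14 that were higher. Cxcl9 had 10.4 in the control mothers against 7.28, 7.31 and 6.92 in the fetal control pools (adjusted p = 0.000516, limma). Cxcl13 had 9.39 against 6.43, 6.49 and 6.35, and its fetal signal was above background in the control channel of 2 of 6 arrays, so the difference of 2.97 is partly against background. Cxcl11 had 9.08 and was not well above background in the fetal control pools. The bound given for it uses the lowest signal that was, on arrays where the Cxcl11 signal lay below it.

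Cxcl14, an epithelial chemokine, was higher in the mother by 2.08, Ccl19 by 1.85, Cxcl1 by 1.79 and Cxcl12 by 1.73. The receptors Cxcr6, of natural killer T cells, and Ccrl1, which removes Ccl19, Ccl21 and Ccl25, were higher by 1.57 and 1.33. Ccl9 was higher by 1.22, Ccl27a by 1.08 and Cxcl16 by 0.83. Ccl7 was higher by 1.03 on its brighter probe and lower (-1.06) on a second probe, so its direction is not settled.

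Among those lower in the mother, the brighter Cxcr4 probe had 6.52 against 8.86, 9.80 and 9.76 (-2.96, adjusted p = 0.00526). This probe was not well above background in the control mothers, so its difference is no measured fold, while the second probe had 7.06 against 8.21, 8.43 and 8.36. Cxcr2 was not well above background in the control mothers either, hence the bound. That bound equals the plain ratio to this signal, and the maternal Cxcr2 ratio of -0.03 is that of a signal at background. Of the 10, 7 were receptors, including Cx3cr1 at -0.82 and Cxcr7 at -0.71, and 3 were ligands, Ccl12 at -1.06, Ccl24 at -0.76 and Ccl4 at -0.76. A second Cx3cr1 probe had the other sign (0.26).

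**Figure D5:**
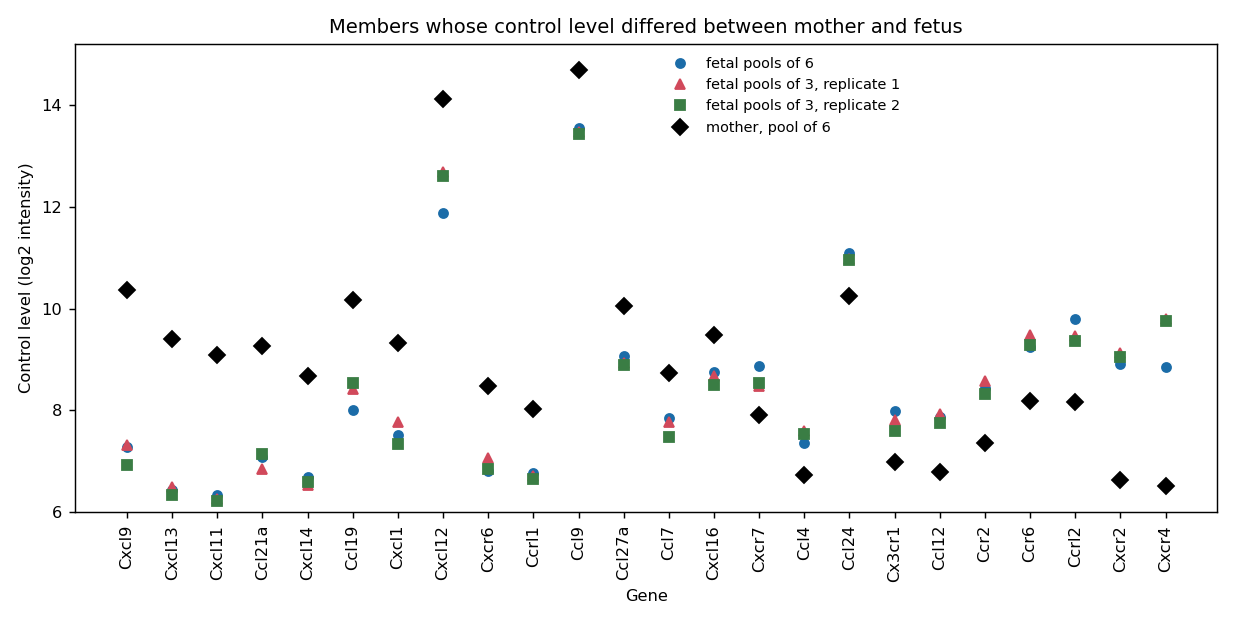
Level in the control pools (vertical axis, log2 intensity) of the 24 members whose level differed between mother and fetus (horizontal axis, ordered by the difference), with a diamond for the maternal pool and 1 point for each of the 3 fetal pools. Cxcl9 is at 10.4 in the mother against at most 7.31 in the fetal pools, and Cxcr4, on a probe not well above background in the control mothers, is at 6.52 against at least 8.86; Cxcr2 in the mother and Cxcl11 in the fetal pools were also not well above background.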

How the data were processed

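RNA of each pool pair was measured on Agilent mouse 2-colour arrays, 8 arrays on 2 slides. The authors deposited scanner files whose values are spot and background intensity in Cy3 and Cy5, per the file headers, with other per-spot flags of 0 or 1. The submitters' processing notes name Agilent Feature Extraction 9.5.3.1, as do the headers of slide 1, while those of slide 2 give 11.0.1.1. The authors also deposited log10 ratios of Cy5 over Cy3, which were not turned for the dye exchange and were used as an alternative.

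The analysis used limma 3.58.1 in R 4.3.3, with jsonlite 2.0.0 and data.table (version 1.17.8) for reading. For slide 1 the mean spot signal was taken and for slide 2, whose files lack it, the median. Background correction was by normexp (offset 50) and within-array normalization by loess, in which control spots had no weight, and the log2 ratios were turned to FR minus control. Spots marked as population outliers were left out, and saturated and non-uniform spots were kept. Probes of a gene name above background for 1 diet on every array that entered were kept, and the brightest stood for the gene. Fetal ratios were tested against 0, and the maternal minus fetal difference between group means, with lmFit and eBayes at an adjusted p under 0.05, after a check on simulated data. Levels were single-channel values after Aquantile normalization, tested likewise. A level bound is the fold against the gene's own signal or, on arrays where that was lower, against the lowest signal well above background. Probe coordinates are mm9, as in the files; promoter sequences are RefSeq's (GRCm38.p6). By accession, 56 members matched a RefSeq gene. Of the members, 1 enters the counts and is not reported here by name. The number of arrays limits the precision.

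Members were named by the rule that all may be named, with values per pool pair for those past a threshold and for 30 ligands and receptors chosen by name, and up to 4 genes of a list by size among those past the threshold. The members and lists were chosen with earlier results of these data known. Alternatives were another offset (10), no loess, the deposited ratios, non-uniform spots left out, no filter or a stricter one, each probe on its own, scaling between arrays, an intensity trend, quantile normalization of the single channels, a 2-fold rule, each maternal array alone, each fetal pool pair left out, and, added after seeing the data, the median signal on slide 1.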

Additional observations from a re-analysis of the deposited data

How the results depend on the processing

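The fetal count of 4 higher members became 0 without loess, 1 with non-uniform spots left out and 0 with log ratios scaled between arrays, and ran from 0 to 3 with each pool pair left out. The count of 12 lower members became 0 with scaling and ran from 0 to 12 with each pool pair left out. It lay between 8 and 14 under the other alternatives. The maternal count of 1 higher member became 0 without loess and 0 at 2-fold. The maternal count of 8 lower members became 2 without loess, 17 with the deposited ratios and 2 at 2-fold. The count of 0 members with a differing maternal and fetal response became 5 with offset 10, 6 with the deposited ratios, 3 without a filter, 2 with an intensity trend and 2 with the median signal on slide 1, and ran from 0 to 2 with each fetal pool pair left out. The count of 10 members with a lower maternal level ran from 6 to 13 with each pool pair left out, and that of 14 higher ones from 13 to 18. The cause of these changes was not tested.

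Of the 16 called fetal members, 9 kept their call without loess, 9 with non-uniform spots left out, 8 without replicate 1 of the pools of 3 and 14 without replicate 2. No called fetal or maternal member changed sign under the alternatives run for it. Signs were followed for called members and those chosen by name, not for all tested members. Among those followed, signs changed only for members that did not pass in the fetus: without loess for Ccl24 (-0.084), Ccl6 (-0.017), Ccrl1 (0.044) and Cxcr5 (0.079), and with the deposited ratios for Cxcl1 (-0.025). With each pool pair left out, Ccl24 ran from -0.059 to 0.19, Ccl3 from -0.047 to 0.15, Ccr9 from -0.049 to 0.022, Cxcl1 from -0.19 to 0.28 and Cxcr5 from -0.063 to 0.036.

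Slide could not be fitted as a random block over 3 pool pairs. Within slide 2 the value is that without the pools of 6, and within slide 1 it is that of the pools of 6, which has no test. Each ratio is already a difference between the control and FR pool of 1 array, so the fetal test against 0 is paired by array. No paired analysis was possible because, beyond that, the groups of pool pairs share only replicate number 1, which leaves nothing to block on. Signal near background limits the dim members, among them Cxcl9, Cxcr6, Cxcr5 and Ccr7 in the fetus and Ccr2, Cxcr4 and Cx3cr1 in the mother.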
